A study of Mus musculus with 8 samples.

Results

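Expression of 10 germline and meiosis genes was examined in mouse mammary tumours of obese and lean hosts. The 10 genes, out of 50143 gene IDs in the count file, were Tdrd1, Tex11, Nxf3, Mael, Dazl, Ddx4, Piwil2, Sycp1, Sycp3 and Stag3. They had been chosen from earlier results on these tumours, in which some of them stood out between the groups, so their difference between obese and lean is described here and carries no test. RNA sequencing covered 8 tumours that the mouse breast adenocarcinoma line Py230 had formed in mammary gland 4 of female C57BL/6 mice. Every mouse had been ovariectomized at 6 weeks of age and changed to its diet 2 weeks later. Hosts of the 4 obese tumours received a high-fat diet of 5.1 kcal/g in which fat gave 60% of the calories. Hosts of the 4 lean tumours received a regular diet of 3.6 kcal/g in which fat gave 10%. Cells were injected after 6 weeks of diet, when mice on the high-fat diet had gained 35% in weight, and tumours were resected on day 56. The tumours of both groups therefore came from 1 cell line in hosts without ovaries. Whether each tumour came from a mouse of its own is not stated in the labels. The p-values set the difference between the groups against the spread of tumours within groups, which may not be the spread between mice.

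Germ cells run programmes that most body cells keep silent. In the piRNA pathway, PIWI proteins loaded with small RNAs silence transposons, with Tudor-domain proteins and helicases as partners in cytoplasmic granules. In meiosis, cohesins and the synaptonemal complex organise and pair the homologous chromosomes. Many of these genes have CpG-rich promoters that are methylated in body cells or bound by a Polycomb-type repressor complex, PRC1.6, which holds E2F6, MGA, MAX, PCGF6 and L3MBTL2. In cancers, genes normally restricted to the germline are known as cancer-testis genes when they are transcribed.

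Promoter windows of 300 bases, from 250 bases before to 50 after a transcription start (RefSeq, GRCm38.p6), were found for 7 of the 10 genes. Tex11, Nxf3 and Piwil2 are named only. The 250 bases before the start are shown for 4 genes, because they set Tdrd1, one of the genes with a large difference, beside 3 genes that stayed at 0.408 CPM or less in every tumour. All 4 hold the letters CACGTG, the canonical E-box that MGA and MAX are known to bind, printed in capitals. The Tdrd1 sequence lies at chr19:56825959-56826208 on the plus strand, that of Mael at chr1:166238745-166238994 on the minus strand, that of Sycp1 at chr3:102936101-102936350 on the minus strand and that of Sycp3 at chr10:88459337-88459586 on the plus strand.
Tdrd1: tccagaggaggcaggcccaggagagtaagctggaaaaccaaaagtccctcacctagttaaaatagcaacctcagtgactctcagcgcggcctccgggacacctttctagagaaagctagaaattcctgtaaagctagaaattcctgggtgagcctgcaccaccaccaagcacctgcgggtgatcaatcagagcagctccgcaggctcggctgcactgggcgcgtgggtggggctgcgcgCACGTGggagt
Mael: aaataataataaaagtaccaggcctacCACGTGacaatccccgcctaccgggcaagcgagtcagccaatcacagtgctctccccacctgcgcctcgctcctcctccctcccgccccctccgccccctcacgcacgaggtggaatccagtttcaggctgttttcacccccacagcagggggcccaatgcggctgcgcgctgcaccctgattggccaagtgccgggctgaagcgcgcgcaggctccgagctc
Sycp1: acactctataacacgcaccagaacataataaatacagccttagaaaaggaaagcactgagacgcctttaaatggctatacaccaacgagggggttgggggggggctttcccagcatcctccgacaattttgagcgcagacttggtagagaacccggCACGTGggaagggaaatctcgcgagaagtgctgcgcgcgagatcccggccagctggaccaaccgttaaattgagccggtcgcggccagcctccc
Sycp3: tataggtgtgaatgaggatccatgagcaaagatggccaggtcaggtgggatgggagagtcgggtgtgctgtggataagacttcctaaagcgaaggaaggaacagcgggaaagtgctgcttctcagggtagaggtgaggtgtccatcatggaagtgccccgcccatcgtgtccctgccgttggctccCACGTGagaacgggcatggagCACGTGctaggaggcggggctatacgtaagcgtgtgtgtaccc

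CACGTG was present in 6 of the 7 genes with a window, all except Dazl, against 7.15% of 32851 promoter windows of the mouse table. Here and below, a gene counted where any of its windows matched, while the shares are per single window. Only Tdrd1 had more than 1 window. Among the 11765 windows with an observed over expected CpG ratio of at least 0.6, the share was 11.3%. The first letter of the motif lay 11 bases before the start in Tdrd1, 29 in Ddx4, 94 in Sycp1, 170 in Stag3 and 223 in Mael, and at 64 and 43 bases in Sycp3. TCCCGC, a core of the E2F6 motif, was found on either strand in 5 of 7 genes, against 6562 of all 32851 windows and 43.1% of the CpG-rich ones. CCAAT was found in 5 of 7, against 37.4%, and TGACGTCA, the cyclic AMP response element, in 0 of 7, against 1.79%. CACGTG and TGACGTCA read the same on both strands, and motifs were counted whether or not they overlapped another. The CpG ratio was 1.06 in Stag3, 0.978 in Ddx4, 0.874 in Sycp1, 0.795 in Dazl, 0.78 in Mael and 0.666 in Sycp3. Tdrd1 had 3 windows with ratios of 0.733, 0.81 and 0.216, and the median of all windows was 0.384. These are matches of letters. CACGTG occurred both in Tdrd1 and in the 3 low genes shown, which were picked after its matches were seen. TCCCGC was absent from every Tdrd1 window and from Dazl, and present in the other 5 genes. Tex11 and Nxf3 had no window, so neither motif can be set against the difference between the groups.

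Values in each tumour are given as CPM (counts per 1 M counts), scaled with TMM factors, in the order of replicates 1 to 4. The replicate numbers only name tumours. The libraries held 25.7 to 66.7 M counts each. A gene with no read in a library could thus still have a level of up to 3 counts there, or 0.0494 to 0.124 CPM on the TMM scale depending on the library. Of the 10 genes, 6 passed the filter on low counts, whose level was 0.21 CPM in at least 4 tumours, and Mael, Dazl, Sycp1 and Sycp3 did not. Log2 changes are obese minus lean with their standard error (SE) from the fit over all genes. In 4 of the 10 genes (Tdrd1, Tex11, Nxf3 and Ddx4) every obese tumour was above every lean tumour. Among the 14887 genes tested, the share with that pattern was 28.9%, and nothing is read from the comparison, because the 10 genes were chosen on this contrast. In bulk tumours, fewer cells of a type and less RNA per cell cannot be told apart.

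**Figure D1:**
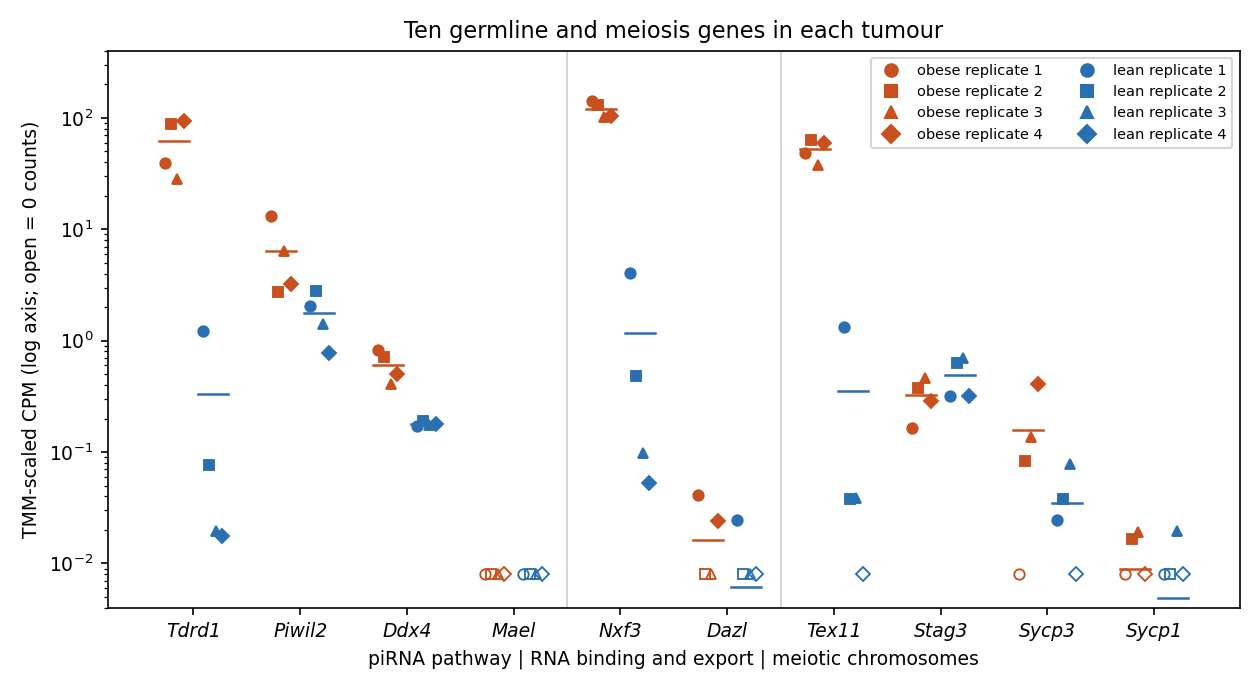
Level of each of the 10 genes in the 4 obese (orange) and 4 lean (blue) tumours, in TMM-scaled CPM on a log axis, with a marker shape per replicate number, open markers for 0 counts placed at the bottom, and horizontal lines at the group means. The obese tumours lie between 28.2 and 143 CPM for Tdrd1, Nxf3 and Tex11, and lean replicate 1 is the highest lean tumour in these 3 genes.

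Tdrd1 encodes a Tudor-domain protein that binds methylated PIWI proteins in the piRNA pathway of male germ cells. The gene (ENSMUSG00000025081, chr19:56826209-56870012, GRCm38) had 39.5, 88.5, 28.2 and 93.6 CPM in the obese tumours and 1.23, 0.0766, 0.0195 and 0.0178 CPM in the lean tumours. The groups were far apart, and within the lean group replicate 1 stood above the others, whose values rest on 1 to 4 counts each. The log2 change was 7.60 ± 1.39 (SE, n = 4 tumours per group), rank 10 among all tested genes. Without lean replicate 1 it was 10.60, and with limma-voom 9.29, so the size of this change rests on that tumour while its direction does not.

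Tex11, an X-linked gene needed for synapsis and crossover formation in male meiosis, behaved in the same way. The gene (ENSMUSG00000009670, X:100838648-101059667) had 47.9, 63.2, 38.1 and 59.0 CPM in the obese tumours and 1.32, 0.0383, 0.0390 and 0 CPM in the lean tumours. Lean replicate 1 held 54 counts, replicates 2 and 3 held 2 each and replicate 4 none. The log2 change was 7.27 ± 1.45 (SE, n = 4 per group), 10.88 without lean replicate 1 and 9.57 with limma-voom.

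Nxf3, also X-linked, encodes a testis-expressed relative of the general messenger RNA export factor. The gene (ENSMUSG00000057000, X:136072099-136085255) had 142.9, 129.7, 102.7 and 103.0 CPM in the obese tumours, the highest level of the 10 genes in CPM. In the lean tumours it had 4.05, 0.479, 0.0976 and 0.0533 CPM, again with replicate 1 on top. The log2 change was 6.70 ± 1.34 (SE, n = 4 per group), 9.15 without lean replicate 1 and 8.54 with limma-voom. Per kilobase of exon, the mean in obese tumours was 39.2 CPM per kilobase for Nxf3, 14.4 for Tex11 and 11.5 for Tdrd1, and in lean tumours 0.384, 0.0968 and 0.0616.

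The correlation of Tdrd1, Tex11 and Nxf3 around their group means rested largely on lean replicate 1. After each group's mean was subtracted, Pearson's r of their log2 CPM over the 8 tumours was 0.949 for Tdrd1 and Tex11, 0.931 for Nxf3 and Tex11 and 0.896 for Tdrd1 and Nxf3. Without lean replicate 1, an alternative added after the data were seen, r over 7 tumours was 0.708, 0.554 and 0.451 for the same pairs. In the obese tumours the order of Tdrd1 and Nxf3 differed, since replicate 4 was the highest for Tdrd1 and close to the lowest for Nxf3. These values describe shared libraries and carry no test. The corresponding r of Tdrd1 with Ddx4 was 0.046 and with Piwil2 0.038.

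The other piRNA genes differed less. Piwil2, a PIWI protein of male germ cells also known as MILI, was detected in all tumours, at 13.2, 2.75, 6.36 and 3.24 CPM in obese and 2.06, 2.82, 1.40 and 0.781 CPM in lean tumours (chr14:70372477-70429383). The groups overlapped, since obese replicate 2 lay below lean replicate 2, and obese replicate 1 was the highest tumour. The log2 change was 1.85 ± 0.62 (SE, n = 4 per group) and ran from 1.23, without obese replicate 1, to 2.17 over the alternatives.

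Ddx4, the germ cell RNA helicase also called Vasa and a standard germ cell marker (chr13:112598333-112652475), was low in every tumour. It had 0.825, 0.709, 0.406 and 0.504 CPM in obese tumours, from 20, 43, 21 and 21 counts, and 0.172, 0.192, 0.176 and 0.178 CPM in lean tumours, from 7, 10, 9 and 10 counts. The groups did not overlap, and the log2 change was 1.75 ± 0.35 (SE, n = 4 per group). Ddx4 passed the filter through the obese tumours alone, since no lean tumour reached 0.21 CPM. Tdrd1 and Tex11 reached that level in 1 lean tumour and Nxf3 in 2, too few for the lean tumours alone to pass these genes. Mael, a piRNA factor of the germ cell granule (chr1:166201201-166238747), had a count of 0 in all 8 tumours.

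Unlike Tex11, the other meiotic chromosome genes of the 10 (Stag3, Sycp3 and Sycp1) were at trace level in both groups. Stag3, a cohesin subunit of meiotic chromosomes (chr5:138280240-138312393), had 0.165, 0.379, 0.464 and 0.288 CPM in obese tumours and 0.319, 0.632, 0.702 and 0.320 CPM in lean tumours. The groups overlapped, and the log2 change of -0.58 ± 0.45 (SE, n = 4 per group) was opposite in sign to that of the 5 other genes that passed the filter. Sycp3, a lateral element protein of the synaptonemal complex (chr10:88459569-88473236), had 0, 5, 7 and 17 counts in obese and 1, 2, 4 and 0 in lean tumours. It overlaps Chpt1, on the opposite strand, which had 17901 counts in all, and since the strand setting of the counting is not given in the sources used here, reads of the pair cannot be told apart. Sycp1, the transverse filament protein of the same complex (chr3:102818499-102936100), had 3 counts over all 8 tumours, and Dazl, an RNA-binding translation regulator of germ cells (chr17:50279395-50293636), also had 3. The 10 genes therefore did not move as a block: Tdrd1, Tex11 and Nxf3 were above 28 CPM in every obese tumour, and Mael, Dazl, Sycp1, Sycp3, Ddx4 and Stag3 were below 1 CPM in every tumour.

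Germline genes outside the 10 were then read from the same fit, in which 59.2% of the 14887 genes tested had an adjusted p under 0.05 (edgeR quasi-likelihood F test with Benjamini-Hochberg adjustment), 30.9% higher and 28.4% lower in obese tumours. Of these calls 52.1% were higher, against 42.4% when scaled by library size and 41.2% with upper quartile factors, which moved the median log2 change of all genes from -0.04 to -0.22 and -0.25. Over 6 germline lists, 111 of 113 listed genes were found, 25 were at 0 in every tumour and 49 were tested. In obese tumours 21 of the 49 (42.9%) rose, 6 (12.2%) fell and 22 did not pass, with a median log2 change of 0.18. The obese tumours were all above the lean ones in 19 of the 49 and all below in 7, against 28.9% and 28.1% of all tested genes. Among the genes named below, Smc1b passed the filter through the obese tumours alone, and Rec8, Mei1, Bmp15 and Amh through the lean tumours alone. These 5 could be tested only because 1 group was higher. The limit reaches further. Dppa4, Xlr3c, Dnmt3l, Ccdc36, Tex19.1 and Rhox5, among others, reached the filter level in only 1 to 3 lean tumours, too few to pass by themselves. Tex15, Vwa2 and Gpc2 reached it in only 1 obese tumour. A rise of at least 16-fold was seen in 9 of the 49, against 1.63% of all tested genes. For Ccdc36, Dppa4, Tex19.1, Rhox5, Xlr3a and Xlr3c of these 9, the lean tumours alone would not have passed the filter. The lists were also chosen with earlier results of these data known, so nothing is read from the comparison. The number that fell was 12 without obese replicate 3 and 10 with limma-voom.

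Of 20 further piRNA pathway genes 8 were tested, of which 2 rose, 1 fell and 5 did not pass (median log2 change -0.54). Piwil4, the nuclear PIWI protein that directs transposon methylation in fetal male germ cells, had 20.2, 15.4, 10.7 and 18.1 CPM in obese and 0.515, 1.38, 1.11 and 0.604 CPM in lean tumours. It rose by 4.15 ± 0.42 (log2, SE, edgeR adjusted p = 0.000323). Tdrd7, another Tudor-domain protein, rose by 0.63 ± 0.16 (adjusted p = 0.0126), a call that was lost with upper quartile factors (adjusted p = 0.0642). Tex15, a partner of nuclear piRNA silencing, fell, with a log2 change of -3.60 ± 1.36 (adjusted p = 0.0493). That fall rested on lean replicate 2 at 12.6 CPM, and without it the log2 change was -1.51 (adjusted p = 0.204).

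Of 18 further axis and synapsis genes 6 were tested, of which 4 rose, 1 fell and 1 did not pass (median 1.67). Trip13, an ATPase that remodels HORMA-domain proteins and also acts in the mitotic checkpoint, had 66.3, 55.7, 50.3 and 64.1 CPM in obese and 13.6, 22.6, 13.6 and 10.2 CPM in lean tumours, a rise of 1.98 ± 0.25 (adjusted p = 0.000695). Ccdc36, also known as Iho1, which acts on the unsynapsed axis in double-strand break formation, rose by 5.32 ± 0.72 (adjusted p = 0.000903), and by 6.04 without lean replicate 1. Smc1b, a meiotic cohesin subunit, rose by 2.68 ± 0.64 (adjusted p = 0.00896) and by 1.99 without obese replicate 4. Rec8, the meiotic kleisin of the same cohesin complex as Stag3, moved the other way at trace level, from 0.515 ± 0.220 CPM in lean to 0.0460 ± 0.0405 CPM in obese tumours (SD, n = 4), a log2 change of -3.54 ± 0.80 (adjusted p = 0.00701) that became -4.14 without obese replicate 3.

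Of 20 recombination and meiotic entry genes found in the file 12 were tested, of which 3 rose, 2 fell and 7 did not pass (median 0.11). Rec114, an accessory factor of meiotic double-strand breaks, had 27.8, 19.9, 19 and 20.9 CPM in obese and 1.32, 1.90, 0.80 and 0.337 CPM in lean tumours, a rise of 4.33 ± 0.53 (adjusted p = 0.000608). Meiob, a single-strand DNA-binding protein of meiotic recombination, rose by 2.96 ± 0.51 (adjusted p = 0.00239). Zcwpw1, a reader of the histone marks left by PRDM9, fell, with a log2 change of -1.6 ± 0.36 (adjusted p = 0.00715). Mei1, needed for break formation, also fell, with 0 counts in 3 of 4 obese tumours and 0.475 ± 0.241 CPM (SD, n = 4) in lean tumours. Its log2 change was -4.29 ± 0.99 (adjusted p = 0.00788), and -7.48 without obese replicate 3.

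Of 21 germ cell regulators 10 were tested, of which 4 rose, 1 fell and 5 did not pass (median 0.37). The gene that fell and 2 of those that rose are not named here. Dppa4, a chromatin factor of early embryo and germ cells, had 31.4, 37.9, 32.1 and 38.5 CPM in obese and 2.95, 0.0383, 0 and 0 CPM in lean tumours. Its log2 change was 5.58 ± 1.76 (adjusted p = 0.0266) and 11.18 without lean replicate 1. The call was lost without lean replicate 2 (adjusted p = 0.0510) and without obese replicate 4 (adjusted p = 0.0508). Tex14, a component of the bridges between germ cells, rose by 1.61 ± 0.45 (adjusted p = 0.0169).

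Of 9 genes known as silenced by promoter methylation in body cells 3 were tested, of which 2 rose and 1 fell. Tex19.1, which acts in transposon control in germ cells and placenta, had a mean of 173 ± 32.7 CPM in obese and 2.48 ± 4.61 CPM in lean tumours (SD, n = 4), of which lean replicate 1 held 9.40. It rose by 6.14 ± 1.57 (adjusted p = 0.0122), and by 9.98 without lean replicate 1. Rhox5, an X-linked homeobox gene of the testis and placenta that many tumour lines express, had 327 ± 52.0 CPM against 5.29 ± 9.75 CPM (SD, n = 4), with 19.9 in lean replicate 1. It rose by 5.96 ± 1.70 (adjusted p = 0.0184), and by 9.64 without lean replicate 1. Brdt, the testis bromodomain protein, fell, with a log2 change of -1.82 ± 0.47 (adjusted p = 0.0117).

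Of 23 genes of X-linked testis families found in the file 10 were tested, of which 6 rose and 4 did not pass (median 1.06). Esx1, a homeobox gene of placenta and testis, had 56.1, 93.3, 34.0 and 98.0 CPM in obese and 1.67, 0.345, 0.293 and 0.408 CPM in lean tumours. It rose by 6.71 ± 0.76 (adjusted p = 0.000480), and by 7.65 without lean replicate 1. Xlr4c, of a repeated lymphoid and testis family, rose by 2.77 ± 0.39 (adjusted p = 0.00103), and Nxt2, a cofactor of the NXF export proteins, by 0.96 ± 0.19 (adjusted p = 0.00448). Xlr3c, named after its values were seen, rose by 6.44 ± 1.47 (adjusted p = 0.00789), and by 10.22 without lean replicate 1. The Xlr genes and Tex19.1 have near-identical relatives, so the assignment of their reads is uncertain.

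**Figure D2:**
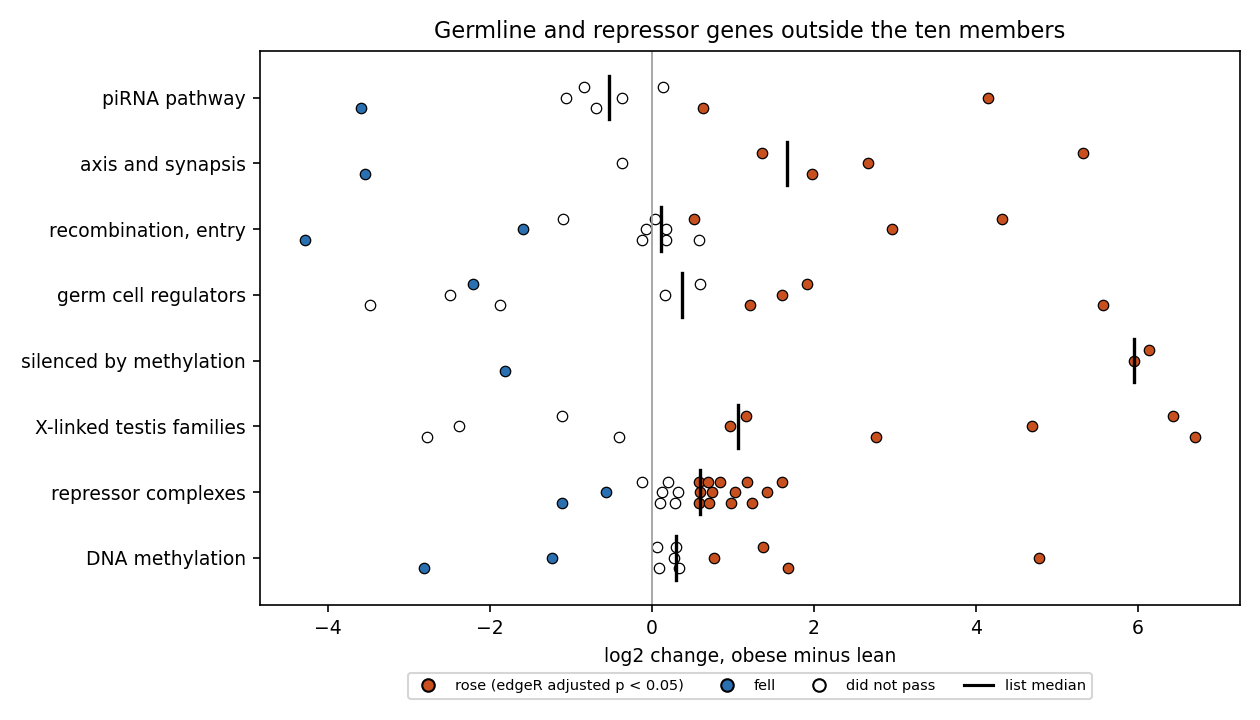
Log2 change (obese minus lean, x axis) of each tested gene of 6 germline lists, the repressor complexes and the DNA methylation machinery (y axis), one point per gene, filled orange where it rose, blue where it fell and open where it did not pass the edgeR test, with a vertical line at each list's median. The germline lists spread from -4.29 to 6.71, and the repressors stay between -1.11 and 1.6.

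The factors known to silence germline genes were measured in the same tumours. Of 21 genes for PRC1.6 and histone H3 lysine 9 methylation 13 rose, 2 fell and 6 did not pass (median 0.59). That was 61.9% higher and 9.52% lower, against 30.9% and 28.4% of all tested genes. This list too was chosen with earlier results known, so nothing is read from the comparison. Pcgf6, the subunit that defines PRC1.6, had 47.0 ± 11.2 CPM in obese and 15.5 ± 3.69 CPM in lean tumours (SD, n = 4), a rise of 1.6 ± 0.23 (adjusted p = 0.00120). L3mbtl2 rose by 0.84 ± 0.12 (adjusted p = 0.00115), and Wdr5, a subunit shared with histone H3 lysine 4 methyltransferases, by 1.24 ± 0.13 (adjusted p = 0.000363). E2f6, the DNA-binding subunit, named after its values were seen, rose by 1.42 ± 0.25 (adjusted p = 0.00281). Kdm5c, an X-linked histone demethylase that acts on germline promoters, fell, with a log2 change of -1.11 ± 0.12 (adjusted p = 0.000396), as did Cbx1, a heterochromatin protein, with -0.56 ± 0.13 (adjusted p = 0.00742).

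Of 11 genes of DNA methylation and its removal 4 rose, 2 fell and 5 did not pass (median 0.29). The shares of 36.4% higher and 18.2% lower stand beside 30.9% and 28.4% of all tested genes, and nothing is read from them. Dnmt1, the maintenance methyltransferase, rose by 0.77 ± 0.14 (adjusted p = 0.00270), and Uhrf1, which recruits it to replicated DNA, by 1.37 ± 0.19 (adjusted p = 0.000986). Dnmt3l, a germ cell cofactor of de novo methylation and itself a germline gene, rose from 0.203 ± 0.243 to 5.52 ± 2.84 CPM (SD, n = 4), a log2 change of 4.78 ± 0.86 (adjusted p = 0.00286) that became 6.05 without lean replicate 1. Dnmt3a, a de novo methyltransferase, fell, with a log2 change of -1.24 ± 0.27 (adjusted p = 0.00630). Tet1, which oxidises methylated cytosine, fell, with a log2 change of -2.82 ± 0.98 (adjusted p = 0.0366). The Tet1 value was -4.13 without obese replicate 3, and its adjusted p reached 0.0900 without obese replicate 4. DNA methylation itself was not measured here.

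Lean replicate 1 stood apart from the other lean tumours in these genes. Across the 10 genes, the 6 germline lists and the DNA methylation list, 13 genes were at least 16-fold higher in obese tumours, and in 11 of them lean replicate 1 was the highest lean tumour. In those 11 it held 1.97% to 10.7% of the obese mean, and no other lean tumour held more than 2.84%. It stood at 1.97% for Tdrd1, 2.55% for Tex11, 3.39% for Nxf3, 5.42% for Tex19.1 and 6.08% for Rhox5. Piwil4 and Rec114 were the exceptions, with lean replicate 2 as the highest lean tumour. Among the obese tumours, replicate 3 held 38.2% of the mean of the other 3 for Tdrd1, 67.1% for Tex11 and 82.0% for Nxf3.

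**Figure D3:**
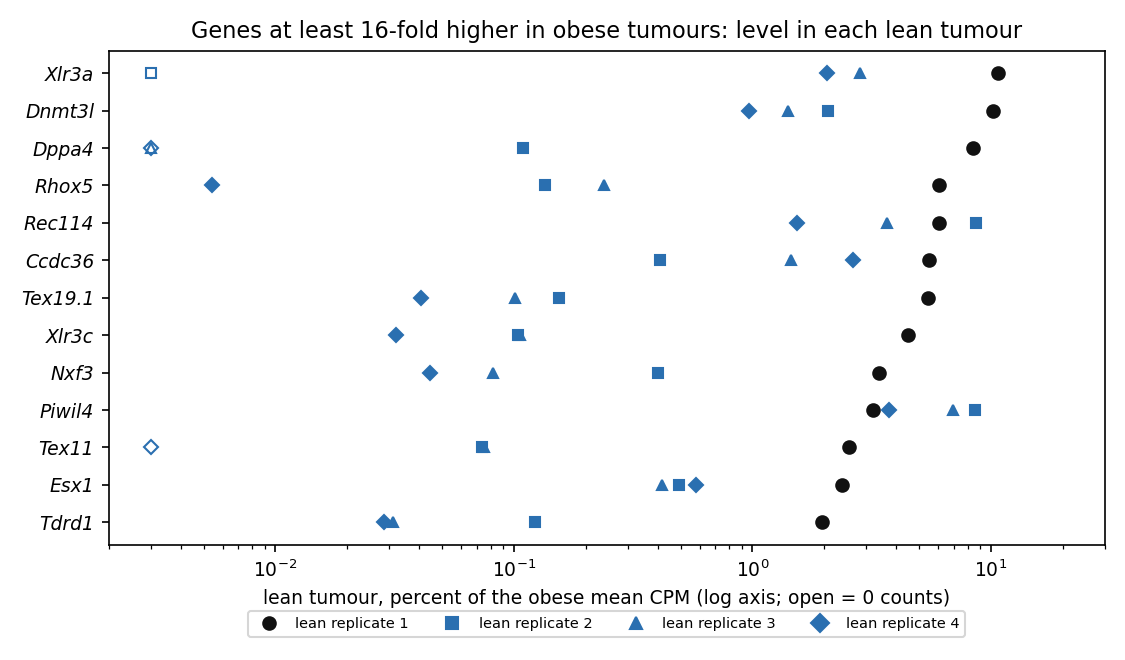
Level in each lean tumour as a percent of the obese mean (x axis, log scale), for the 13 genes at least 16-fold higher in obese tumours (y axis), with lean replicate 1 in black, the other lean tumours in blue and open markers for 0 counts. Lean replicate 1 is the rightmost point in 11 of 13 genes, between 1.97% and 10.7%.

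Markers of other cells were summed in each tumour, and their part in the results above was not tested. The 8 spermatid markers came to 0.0494 to 0.248 CPM in obese and 0.123 to 0.231 CPM in lean tumours, with Tnp1 at 0 and none past the filter. The 7 oocyte markers came to 0.165 to 0.503 CPM in obese and 0.941 to 1.42 CPM in lean tumours, and the 2 that were tested fell. These were Bmp15, an oocyte growth factor (log2 change -2.29 ± 0.66, adjusted p = 0.0184, -3.35 without obese replicate 3, and 0.0532 as adjusted p without obese replicate 4), and Gdf9, its relative (-1.10 ± 0.41, adjusted p = 0.0466), whose call was lost under 10 of 14 alternatives. The 8 markers of gonad somatic cells came to 1.69 to 2.64 CPM in obese and 2.78 to 4.38 CPM in lean tumours, with Fshr and Foxl2 at 0. Of the 4 tested Amh fell, with a log2 change of -2.31 ± 0.79 (adjusted p = 0.0350) that lost its call under 6 of 14 alternatives. The spermatid and oocyte lists do not cover other stages of germ cells.

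The epithelial markers of the labelled tumour type were present and separated the groups. Their sum over 6 genes was 62.6 to 699 CPM in obese tumours, highest in replicate 3, and 1798 to 2781 CPM in lean tumours, highest in replicate 1. All 6 were lower in every obese tumour than in any lean tumour, a pattern of 28.1% of all tested genes, and 3 passed the test as lower, against 28.4% of all tested genes. Krt5, a basal keratin, had a log2 change of -6.20 ± 1.39 (adjusted p = 0.00735, -5.34 without lean replicate 2) and Krt14, its partner, -4.80 ± 1.28 (adjusted p = 0.0142, -3.78 without lean replicate 1). Both keratins were at 0 in obese replicate 1. Krt8, a luminal keratin, had -1.46 ± 0.48 (adjusted p = 0.0300), a call lost without lean replicate 1 or obese replicate 4, with an adjusted p of up to 0.0647. The summed leukocyte, fibroblast, endothelial, adipocyte and skeletal muscle markers each overlapped between the groups. Single leukocyte and fibroblast markers moved in both directions. Leukocyte markers came to 355 to 511 CPM in obese and 293 to 460 CPM in lean tumours, fibroblast markers to 305 to 1437 and 430 to 648 CPM, endothelial markers to 105 to 153 and 107 to 239 CPM, and adipocyte markers to 3.54 to 118 and 20.9 to 110 CPM. Skeletal muscle markers came to 1.49 to 156 CPM in obese and 15.9 to 1064 CPM in lean tumours, highest in lean replicate 1 at 1064 and replicate 4 at 1012.

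Of all tested genes 30.9% rose and 28.4% fell, the shares beside which the counts below stand. Of the 6 leukocyte markers 1 rose, 4 fell and 1 did not pass. The B cell genes Ms4a1 (log2 change -4.53 ± 0.52, adjusted p = 0.000455) and Cd79a (-3.82 ± 0.62, adjusted p = 0.00188, -4.58 without obese replicate 4) and the T cell gene Cd3e (-2.19 ± 0.51, adjusted p = 0.00807) fell. Adgre1, which encodes the macrophage antigen F4/80, rose by 1.22 ± 0.21 (adjusted p = 0.00237). Of the 5 fibroblast markers 2 rose, 2 fell and 1 did not pass. The receptors Pdgfrb (1.8 ± 0.35, adjusted p = 0.00380) and Pdgfra (1.43 ± 0.37, adjusted p = 0.0117) rose, and the matrix proteoglycans Dcn (-1.72 ± 0.45, adjusted p = 0.0127) and Lum (-1.32 ± 0.35, adjusted p = 0.0137) fell. Of the 4 endothelial markers Tek fell (-1.29 ± 0.40, adjusted p = 0.0247) and 3 did not pass, and the Tek call was lost without lean replicate 2 or obese replicate 1, with an adjusted p of up to 0.0571.

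The nearest tested gene on each side was read for the 6 genes that passed the filter. Near Tdrd1, Ccdc186 at 4.02 kb had a log2 change of 0.67 ± 0.26 and did not pass (edgeR adjusted p = 0.0535, 0.0218 to 0.141 over the alternatives). On the other side, Vwa2 at 4.24 kb fell, with -7.44 ± 1.65 (adjusted p = 0.00703, -5.94 without lean replicate 2 and -8.33 without obese replicate 3). Near Tex11, Dlg3 at 20.2 kb fell, with -1.0 ± 0.22 (adjusted p = 0.00648), and Slc7a3 at 19.5 kb rose by 4.06 ± 0.48 (adjusted p = 0.000543). Near Nxf3, Bex2 at 3.86 kb had 0.09 ± 0.76 (adjusted p = 0.924), and Tceal8 at 83.7 kb fell, with -2.84 ± 0.71 (adjusted p = 0.0115, -4.0 without obese replicate 3). For the 3 genes with the largest changes, 1 of 6 neighbours rose, 3 fell and 2 did not pass. Of all tested genes 30.9% rose and 28.4% fell, so nothing is read from these 6.

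Around Ddx4, neither Il31ra (0.57 ± 0.61, adjusted p = 0.437, 0.0336 without lean replicate 1) nor Slc38a9 (0.27 ± 0.17, adjusted p = 0.194) passed. Around Piwil2, Slc39a14 had 0.68 ± 0.29 (adjusted p = 0.0712) and passed without lean replicate 2 and without obese replicate 3, with an adjusted p of down to 0.0136. Polr3d rose by 0.45 ± 0.15 (adjusted p = 0.0326), a call lost under 11 of 15 alternatives. Gpc2, which starts 0.235 kb from Stag3 on the opposite strand, fell, with -2.03 ± 0.34 (adjusted p = 0.00213), and Zfp157 on the other side of Stag3 had -0.12 ± 0.21 (adjusted p = 0.621).

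**Figure D4:**
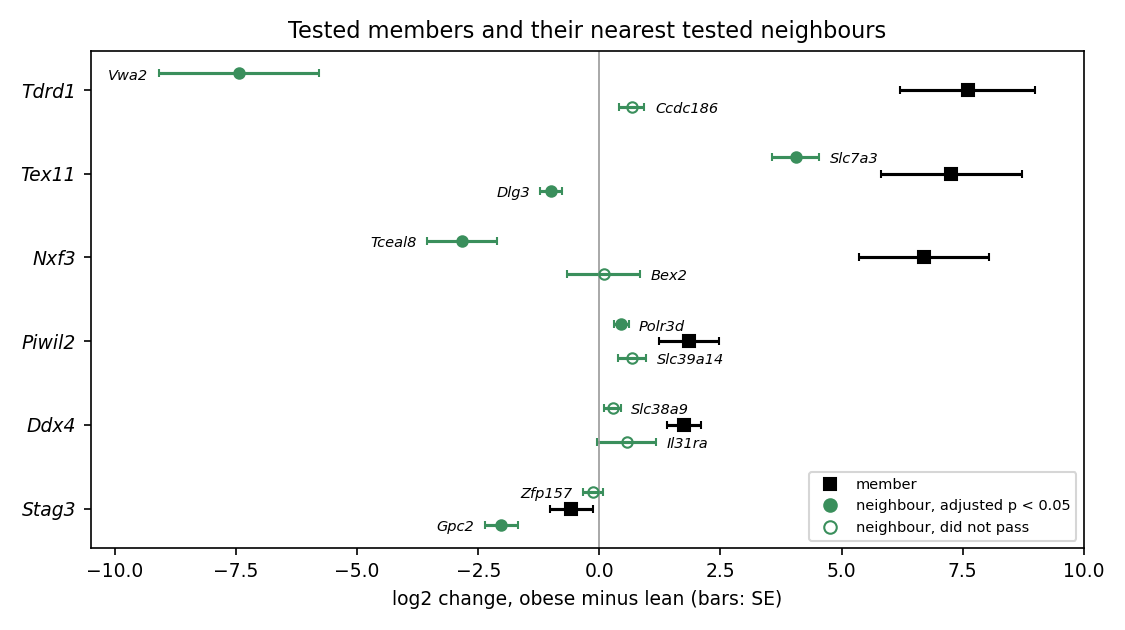
Log2 change (obese minus lean, x axis, bars are the SE) of the 6 genes that passed the filter, drawn as black squares in rows, and of the nearest tested gene on either side, drawn as green circles that are filled where the edgeR adjusted p was under 0.05. Beside Tdrd1 at 7.60 lie Vwa2 at -7.44 and Ccdc186 at 0.67.

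The genes whose pattern within the groups was most like the mean of the 6 tested genes were Erc2 (r = 0.999), Sec1 (0.995), Slc9b1 (0.989), Clstn3 (0.979) and Cdsn (0.978), where r is Pearson's over 8 tumours after each group mean was subtracted, among 12404 genes. The points share their libraries, and lean replicate 1 was the highest lean tumour for all 5. These r were not recomputed without that tumour, and without it r among Tdrd1, Tex11 and Nxf3 was only 0.451 to 0.708. The mean does not stand for each of the 6 genes. Over all 8 tumours, r of Tdrd1 was 0.046 with Ddx4, 0.038 with Piwil2 and -0.326 with Stag3. Erc2, a presynaptic scaffold gene, had 13.9, 13.6, 9.57 and 12.5 CPM in obese and 0.565, 0.0958, 0.0390 and 0 CPM in lean tumours. Clstn3, a calsyntenin, had 182, 168, 108 and 191 CPM in obese and 10.9, 0.958, 0.527 and 0.355 CPM in lean tumours. Cdsn, a corneodesmosome protein, had 1.49, 3.58, 1.93 and 2.25 CPM in obese and 16.9, 1.72, 0.468 and 0.16 CPM in lean tumours, so its groups overlapped although its within-group pattern was alike.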

How the data were processed

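RNA was sequenced from 8 snap-frozen tumours, 4 obese and 4 lean, grouped by the labels. The deposited file holds raw counts per Ensembl gene, with 1 column per tumour. Per the submitters' processing notes, the tools were STAR 2.5.2b, HTSeq, cutadapt 1.12, bcl2fastq 2.18.0.12 and CASAVA 1.8, and the build was mm10. The annotation, strand setting and read filters are not given in the sources used here, and the kit was stranded per the labels' protocols. Symbols and coordinates came from GENCODE M21, which named 49412 of 50143 IDs; 37 mitochondrially encoded genes were at 0.

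Genes were kept by edgeR's filterByExpr (minimum count 10, minimum total 15), scaled by TMM and compared between obese and lean by a two-sided quasi-likelihood F test in edgeR with robust dispersions. P-values were adjusted over 14887 genes after Benjamini and Hochberg, with a threshold of 0.05. SEs are the log2 change over the square root of F. Exon length is the union of a gene's exons. Correlations used log2 CPM with a prior count of 2. The alternatives were scaling by library size only, by upper quartile or by DESeq2's size factors, no filter, 1 CPM in 4 tumours, limma-voom, the DESeq2 Wald test and leaving out each tumour. The fit was tested on simulated data in which few genes changed, unlike the tumours. It called 5 of 91 genes with a log2 change of 1 in size and 60 of 106 with 2. Of 14571 unchanged genes it called 2. A gene that did not pass may therefore still differ. edgeR 4.0.16, DESeq2 1.42.0 and limma 3.58.1 were run in R 4.3.3.

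The 10 genes, the gene lists and the settings were chosen with earlier results of these data known. Named genes are up to 3 called genes per list and direction with the smallest p, and the nearest tested neighbours. Also named are the 5 genes most like the mean of those of the 10 that were tested. The text names part of them, and a few others are not reported here. The capitals, the 4 sequences shown, the CpG-rich background and the motif counts by class were chosen after the motif matches were seen. The floors cover counting error only. SEs and SDs include the spread between the tumours of a group.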

Additional observations from a re-analysis of the deposited data

Results flagged for a closer look

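Among 29 of the germline genes with enough counts, each group of 4 tumours was examined for a tumour whose gap to the nearest other took a larger share of the group's range than Dixon's critical value for 4 samples. This held in 10 of 58 groups. The nominal rate of about 1 in 20 assumes normal values and independent groups. These CPM were not log-transformed, the groups share tumours and the genes were chosen on this contrast. The count is therefore not weighed against that rate. In 7 of the 10 the tumour was lean replicate 1, the highest lean tumour, with 1.23 CPM for Tdrd1, 4.05 for Nxf3, 1.32 for Tex11, 2.95 for Dppa4, 9.40 for Tex19.1, 19.9 for Rhox5 and 1.67 for Esx1. The same tumour had the highest summed epithelial markers, 2781 CPM, and skeletal muscle markers, 1064 CPM, and their part in these values was not tested.

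Tex15 was far higher in lean replicate 2, at 12.6 CPM, than in the other lean tumours, and in obese replicate 3, at 0.908 CPM, than in the other obese tumours. Mei1 was seen in obese replicate 3 alone among the obese tumours, at 0.0773 CPM.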

How the results depend on the processing

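No paired analysis was possible because no label pairs the tumours and their numbers are only names. The log2 changes of Tdrd1, Tex11, Nxf3, Piwil2, Ddx4 and Stag3 kept their sign under all alternatives that gave a value. The count of all genes called stayed within 1.5 times the value reported under 15 alternatives (7143 to 9833). Of the germline list genes outside the 10, the number that fell was 10 with limma-voom and ran from 5 to 12 when each tumour was left out. Over 64 genes and 947 recomputed calls, 884 kept their direction and side of the threshold, 47 lost the call, 7 gained it and 9 changed sign, all 9 in genes that did not pass. Bex2 was -0.095 (log2) with library size only, -0.12 with upper quartile factors and between -0.25 and 0.81 when a tumour was left out. Cdsn, at -1.05 in the main setting, was 1.02 with limma-voom and 1.55 without lean replicate 1, and reached down to -1.45 with another tumour left out. Zfp157 ran from -0.22 to 0.007 when a tumour was left out. The cause was not tested. At 25.7 to 66.7 M counts per tumour, differences in Mael, Dazl and Sycp1 were not detectable.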

Other observations

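Among the germline list genes outside the 10, CACGTG occurred in the promoter windows of 2 of 16 genes that rose, 1 of 4 that fell, 0 of 16 that were tested and did not pass and 14 of 52 under the filter. Only the first window listed for each of these genes was read. TCCCGC occurred in 5, 1, 8 and 10 of the same classes. The median CpG ratio was 0.543 in the genes that rose, 0.727 in those that fell, 0.735 in those that did not pass and 0.556 in those under the filter. These are descriptions with no test.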
